A study of Mus musculus with 24 samples.

Results

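The genes described here are the mouse zinc finger genes numbered Zfp900 to Zfp999, whose members are given by a rule on the symbol that uses no measured value. Of the 47937 genes listed in both count tables, 66 carry such a symbol, and 64 of them had at least 1 count in each table. Zfp957 and Zfp969 were listed at 0 in every RNA-seq library. In RNA-seq 60 of the 66 passed the filter on low counts and were tested, and in the m6A libraries 62 were. A further 334 genes named Zfp with another number served for comparison.

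Zinc finger proteins of this kind bind DNA through tandem fingers of the C2H2 type. Many carry a KRAB domain, which recruits the corepressor Trim28 and through it the histone methyltransferase Setdb1, and individual members are known to hold retrotransposons and imprinted loci silent in embryonic stem (ES) cells. The genes multiply by local duplication, so they lie in clusters of near-identical copies and differ between mouse strains. m6A is a methyl mark on adenosine in RNA that is deposited by a complex of the catalytic subunit Mettl3 and its partner Mettl14, mostly in long internal exons and near stop codons.

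The libraries came from 4 mouse ES cell lines of the background 129/Sv x C57Bl6, grown in serum replacement and LIF on gelatin. WT26 was wild type and *Mettl14* KO was 1 clone derived from it by CRISPR with guides to both genes, in which the study describes the catalytic domain of Mettl3 as intact, so that the knockout and the clone cannot be told apart. RBC carried Rosa26 BirA-V5 and Cre-ERT2 and was otherwise wild type, and *Mettl3* KO was a clone with the same Rosa26 alleles plus the Mettl3 knockout. Each line gave 2 RNA-seq libraries, 2 MeRIP inputs and 2 m6A immunoprecipitates (IP), which makes 8 RNA-seq and 16 MeRIP libraries. The study describes nuclear RNA as the material, whereas the labels say total RNA. Totals ran from 11321459 to 13743181 counts in RNA-seq and from 9394163 to 28441282 in MeRIP, where replicate 1 was the deeper library in every group. Replicates are numbered in the labels without a statement on cultures, so p-values measure the spread between these samples.

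The targeted genes were checked before the members. Mettl14 stood at 401 and 358 normalized counts in WT26 and at 297 and 316 in *Mettl14* KO, a log2 change of -0.31 ± 0.0871 (SE, edgeR adjusted p = 0.00609). Mettl3 stood at 928 and 979 in RBC and at 880.0 and 821 in *Mettl3* KO, a log2 change of -0.16 with an edgeR adjusted p of 0.0588. A disrupted gene may still be transcribed, so these gene-level counts do not check the knockouts. Replicates of RBC differed more than those of the other lines in RNA-seq, where chi-square divided by its degrees of freedom was 39.8 and elsewhere ran from 2.95 to 6.31.

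The members fell mostly into clusters, defined here as neighbours less than 1000 kb apart. The largest held 16 genes on chromosome 4 (GRCm38, chr4:145510759-147848366, 2338 kb). Another 10 lay on chromosome 2, 10 and 3 in separate clusters on chromosome 17, 4 on chromosome 7, 3 on chromosome 8 and 2 on chromosome 13. Of the 65 members with a coding sequence in GENCODE M21, 58 held at least 1 C2H2 finger by pattern, with a median of 11 and up to 21, and 52 matched a short KRAB pattern. The patterns were read in 1 transcript per gene, the longest coding one. In Zfp931, Zfp935, Zfp950, Zfp965 and Zfp972 that transcript had no finger and a coding sequence of 192 to 450 bases. Other transcripts of these genes were not read. Zfp939 is annotated as a transcribed pseudogene. A single large exon made up a median of 84.6% of the transcript, against 56.0% over 21951 protein-coding genes. Over 326 other numbered Zfp coding genes it was 83.6%. The fingers of such genes are commonly encoded together in the last exon.

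The copies also resemble each other upstream of their starts. RefSeq (build GRCm38.p6) gives promoter windows of 300 bases, 250 before the start and 50 after it, for 56 of the 66 members, and for Zfp930, Zfp934, Zfp960, Zfp969, Zfp978, Zfp986, Zfp989, Zfp990, Zfp991 and Zfp992 no window was used. The most widely shared 12-base word in the chromosome 4 windows was GGGAAGCTAATT, present on either strand in 8 of 10 of them and in 13 of 27025 genes (0.0481%). The stretches below, which end before the annotated start, are shown because they let the near-identity of the copies be seen, with the shared word in capitals.
Zfp979 (chr4:147642517-147642656, minus strand): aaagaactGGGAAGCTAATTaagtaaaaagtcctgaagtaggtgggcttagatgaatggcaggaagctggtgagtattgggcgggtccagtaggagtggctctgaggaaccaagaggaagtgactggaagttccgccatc
Zfp982 (chr4:147492259-147492398, plus strand): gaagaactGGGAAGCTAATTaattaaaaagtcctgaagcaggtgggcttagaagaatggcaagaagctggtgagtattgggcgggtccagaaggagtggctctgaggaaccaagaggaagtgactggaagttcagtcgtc
Zfp984 (chr4:147809810-147809949, minus strand): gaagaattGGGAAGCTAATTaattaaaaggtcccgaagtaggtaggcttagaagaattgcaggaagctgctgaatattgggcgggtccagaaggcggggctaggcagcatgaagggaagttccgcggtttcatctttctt
Zfp985 (chr4:147553134-147553273, plus strand): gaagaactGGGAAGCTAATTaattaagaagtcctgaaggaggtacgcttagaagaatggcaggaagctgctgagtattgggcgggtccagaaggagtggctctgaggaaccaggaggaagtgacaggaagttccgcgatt
Zfp987 (chr4:146097154-146097293, plus strand): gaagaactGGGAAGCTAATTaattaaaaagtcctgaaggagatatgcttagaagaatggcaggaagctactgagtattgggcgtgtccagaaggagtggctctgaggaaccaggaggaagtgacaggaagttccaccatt
Zfp988 (chr4:147305483-147305603, plus strand): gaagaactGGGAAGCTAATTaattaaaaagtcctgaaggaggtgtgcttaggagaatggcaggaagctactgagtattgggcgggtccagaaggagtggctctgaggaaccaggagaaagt

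Zfp980 and Zfp981 held the same word, and Zfp933 and Zfp993, the other members of that cluster with a window, did not. Outside chromosome 4 another word, CTGCCAGTCAGA, was the most shared. It stood in 16 of the 56 member windows and in 56 of 27025 genes (0.207%), among them members of the chromosome 2 and chromosome 7 clusters and the unclustered Zfp932, Zfp950 and Zfp951. Stretches of Zfp971, Zfp932 and Zfp976 are shown, with that word in capitals, because they let the likeness be seen across chromosomes.
Zfp971 (chr2:178023179-178023283, plus strand): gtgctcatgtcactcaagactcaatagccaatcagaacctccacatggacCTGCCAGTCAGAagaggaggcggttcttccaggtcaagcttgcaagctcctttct
Zfp932 (chr5:109996428-109996509, plus strand): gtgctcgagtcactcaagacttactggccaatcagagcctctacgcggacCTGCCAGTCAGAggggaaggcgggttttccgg
Zfp976 (chr7:42642605-42642683, minus strand): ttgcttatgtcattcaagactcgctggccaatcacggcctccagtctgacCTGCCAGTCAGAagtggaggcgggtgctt

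Neither word was matched to a factor, and its presence is a description of shared sequence only. Because of this likeness a read may map to several members, and the counts of close copies are uncertain to the extent that the counting split such reads. Exons of some members also overlap those of other genes, among them Zfp973 with Gm14305, Zfp963 with Gm20422, Zfp984 with Gm20707, Zfp956 with Zfp783 and Zfp934 with Zfp935.

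Members were expressed at levels above the typical coding gene. In WT26 the median member with a count had 116 normalized counts per kb of exon, against 30.5 over 17940 protein-coding genes with a count. The highest levels per kb belonged to the chromosome 4 cluster, with 2130 for Zfp978, 1440 for Zfp990, 1140 for Zfp981 and 1050 for Zfp985. Zfp936 on chromosome 7, at 898 per kb, was the highest outside it. At the other end, Zfp965, Zfp966, Zfp967 and Zfp968 of the chromosome 2 cluster had at most 4 raw counts in any RNA-seq library. In the MeRIP inputs of the same lines Zfp965 had 6 to 28 raw counts and Zfp966 had 25 to 59, while Zfp967 and Zfp968 had 0. The tables were counted separately, and their levels are not compared.

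RNA-seq of *Mettl14* KO against WT26 asked how the level of each transcript differed without Mettl14. A gene was called when its edgeR adjusted p, over all 17021 genes tested, was at most 0.05 and its log2 change exceeded 1 in size. Of the 60 members tested, 2 were called higher and 8 lower, or 3.33% and 13.3%, where all genes gave 7.95% higher and 6.57% lower. The other numbered Zfp genes gave 9 higher and 10 lower of 308. By the adjusted p alone 12 members rose and 24 fell, where 25.5% and 27% of all genes did. The median log2 change of the members was -0.12 and that of all genes 0.00.

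Of the 8 called falls, 7 lay in the chromosome 4 cluster. All 16 members of the chromosome 4 cluster had lower values in *Mettl14* KO, 15 of them past the adjusted p and 7 called, with a median log2 change of -0.94 and a range from -1.25 to -0.26. The 44 members tested outside it had a median of 0.02, with 2 called higher and 1 lower. Summed over the 16 genes, the cluster gave 31149 and 29129 normalized counts in WT26 and 15794 and 16283 in *Mettl14* KO. The cluster includes Zfp979, known as the strain-specific modifier Ssm1b of transgene methylation. In bulk RNA, fewer cells expressing a gene and less RNA per cell cannot be told apart.

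**Figure D1:**
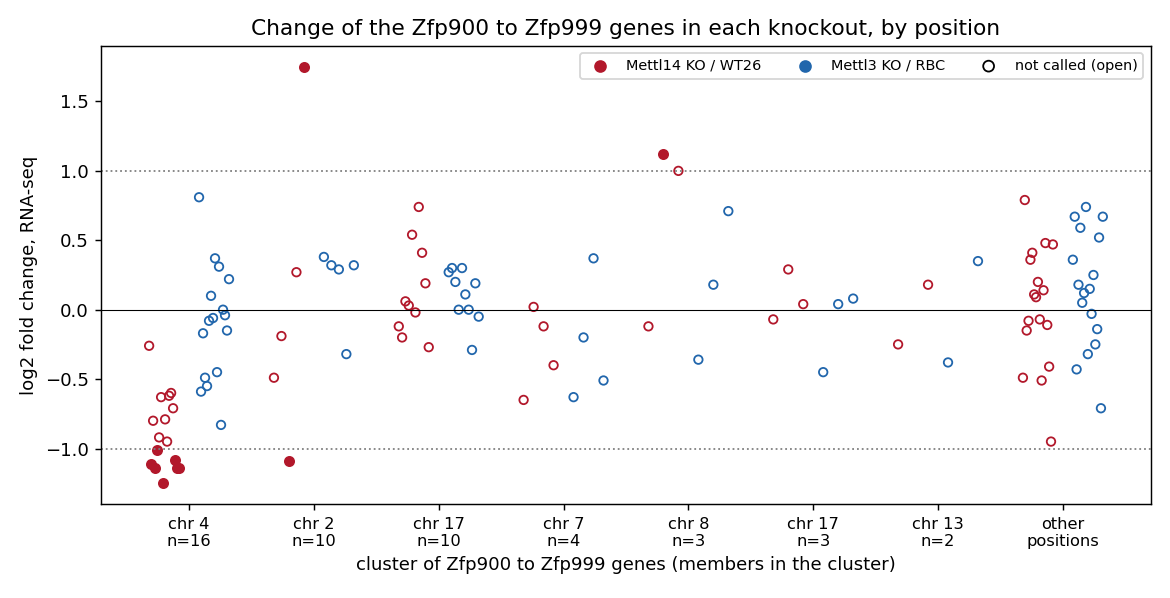
RNA-seq log2 fold change of every tested member in *Mettl14* KO against WT26 (red) and *Mettl3* KO against RBC (blue), by cluster on the x axis, with n counting all members of the cluster, filled points called and dotted lines at the log2 limits of -1 and 1. The red points of the chromosome 4 cluster lie between -1.25 and -0.26, whereas the blue points of the same genes lie on both sides of 0.

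Among the called members of the chromosome 4 cluster, Zfp985, with a run of 10 fingers, moved most. It had 3149 and 2902 normalized counts in WT26 and 1283 and 1259 in *Mettl14* KO, a log2 change of -1.25 ± 0.0509 (SE, adjusted p = 2.16e-12). The groups did not overlap, and Zfp985 fell 2.38-fold. Zfp992 went from 2840 and 2693 to 1245 and 1270, a log2 change of -1.14 ± 0.0476. Zfp980 went from 2252 and 2143 to 1006 and 985, a log2 change of -1.14 ± 0.0505. Their knockout libraries also did not overlap WT26. Zfp978, the member with the highest level per kb, stood at 2785 and 2706 in WT26 and at 1244 and 1300 in the knockout, a log2 change of -1.11 ± 0.0521. Zfp991 went from 1024 and 931 to 467 and 459, a log2 change of -1.08 ± 0.0760. In each of these genes the lower WT26 library was well above the higher knockout library.

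Zfp981 was close to the limit. It stood at 3756 and 3446 in WT26 and at 1759 and 1807 in *Mettl14* KO, a log2 change of -1.01 ± 0.0514 that came to -0.95 without WT26 replicate 1 and to -0.99 without *Mettl14* KO replicate 1. Zfp993, the most weakly expressed of the called members of the cluster, had 105 and 126 in WT26 and 65.1 and 39.0 in the knockout. Its log2 change of -1.14 ± 0.221 came to -0.81 without *Mettl14* KO replicate 2, whose value was the lowest. Zfp982 had 879 and 939 in WT26 and 475 and 485 in the knockout, a log2 change of -0.92 ± 0.0680 that passed the adjusted p of edgeR (3.80e-09) and not the limit on the fold. The remaining falls past the adjusted p were Zfp987 at -0.95, which came to -1.02 and was called by edgeR without WT26 replicate 2, Zfp979 at -0.80, Zfp986 at -0.79, Zfp990 at -0.71, Zfp984 at -0.63, Zfp988 at -0.62 and Zfp989 at -0.60. Zfp933, the remaining member of the cluster, had a log2 change of -0.26 that did not pass.

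**Figure D2:**
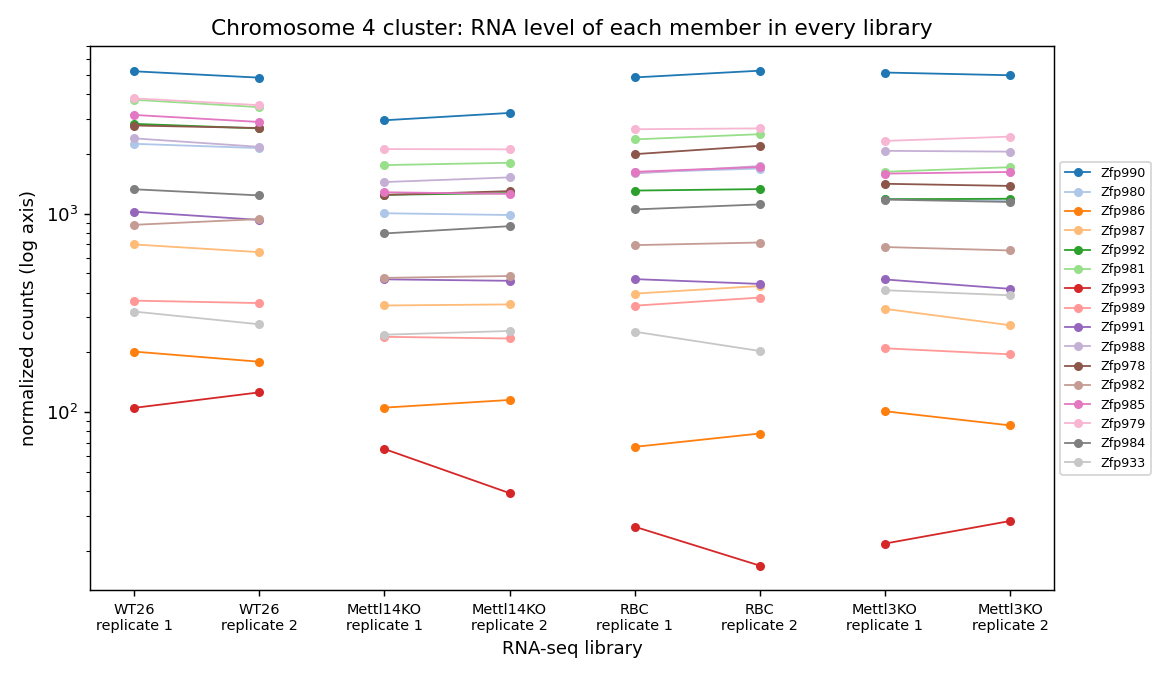
Normalized counts (log axis) of the 16 chromosome 4 members in each of the 8 RNA-seq libraries, with a line joining the replicates of a line. Most members are highest in WT26, and Zfp993 falls from 105 and 126 in WT26 to 26.4 and 16.8 in RBC.

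The same interval holds 72 other genes, of which 43 were tested, most of them predicted genes and pseudogenes. Of these, 40 had lower values in *Mettl14* KO, 28 passed the adjusted p and 21 were called lower. By edgeR and by DESeq2 0 were called higher, and 29 of the 43 had an unadjusted p under 0.05. Their median log2 change was -0.88 and their range -2.40 to 0.15. In RBC against WT26, which shares the WT26 libraries, 40 of the 43 also had lower values, 31 passed the adjusted p and 16 were called lower, with a median of -0.86. Among all 17021 genes 3272 were lower by the adjusted p in RBC against WT26. In *Mettl3* KO against RBC 8 of the 43 were called higher and 6 lower, with a median of -0.20. The named zinc finger genes among them had values within the members' range or beside it, with Zfp600 at -1.09, Zfp534 at -1.06 and Rex2 at -1.18. Neighbours can share reads with the members they resemble.

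Away from chromosome 4, Zfp971 of the chromosome 2 cluster had 766 and 711 normalized counts in WT26 and 347 and 348 in *Mettl14* KO, a log2 change of -1.09 ± 0.0764 (SE, adjusted p = 1.91e-09). It was the only called fall outside chromosome 4. Zfp961 on chromosome 8 came next, from 2274 and 2167 to 1119 and 1186, a log2 change of -0.95 ± 0.0537. Zfp936 went from 2940 and 2943 to 1856 and 1896, a log2 change of -0.65 ± 0.0466. Its chromosome 7 neighbour Zfp977 had a change of -0.40. Zfp932, a KRAB protein known to repress copies of the ERVK class of endogenous retroviruses, had 376 and 418 in WT26 and 286 and 278 in the knockout, a log2 change of -0.49 ± 0.0912 (edgeR adjusted p = 0.000209).

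Both called rises were of weakly expressed genes. Zfp973, also in the chromosome 2 cluster, had 9.9 and 5.4 normalized counts in WT26 and 28 and 25.3 in *Mettl14* KO, a log2 change of 1.75 ± 0.380 (SE, adjusted p = 0.000883). Zfp963 on chromosome 8 had 21.7 and 20.4 in WT26 and 52.1 and 39.9 in the knockout, a log2 change of 1.12 ± 0.259 that came to 0.92 without *Mettl14* KO replicate 1. The groups of both genes did not overlap, but each shares exon sequence with an overlapping predicted gene. Zfp964, a neighbour of Zfp963, had 33.5 and 61.2 in WT26 and 89.1 and 96.4 in the knockout, a 1.997-fold rise just inside the limit (edgeR adjusted p = 0.000943), and 1.47 on the log2 scale without WT26 replicate 2. Zfp937 rose from 112.1 and 111.7 to 190.3 and 195.8, a log2 change of 0.79 ± 0.125. Zfp948 rose from 349 and 297 to 532 and 551, a log2 change of 0.74 ± 0.0869.

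RNA-seq of *Mettl3* KO against RBC asked the same question for the catalytic subunit. None of the 60 members was called by edgeR in either direction, where 6.15% of all genes were called higher and 7.43% lower. At an unadjusted p under 0.05 there were 36 members, and DESeq2 called 0. By the adjusted p alone 17 members rose and 17 fell, where 25.2% of all genes rose and 28.1% fell. These shares lie near the background, and every change was smaller than 2-fold. The members ranged from -0.83 to 0.81 with a median of 0.06. Of the other numbered Zfp genes, 10 of 308 were called higher and 3 lower.

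In the chromosome 4 cluster 2 of 16 members rose by the adjusted p in *Mettl3* KO and 7 fell, with a median log2 change of -0.07. Zfp989 had 344 and 378 normalized counts in RBC and 210 and 195 in *Mettl3* KO, a log2 change of -0.83 ± 0.0922, the largest fall. Zfp981 went from 2370 and 2518 to 1628 and 1716, a log2 change of -0.55 ± 0.0520, and Zfp978 changed by -0.59. In contrast Zfp933 had 254 and 203 in RBC and 411 and 388 in the knockout, a log2 change of 0.81 ± 0.107 (SE, adjusted p = 4.54e-06), the largest rise among the members. Zfp988 changed by 0.31. Zfp985 and Zfp982 had log2 changes of -0.06 and -0.08 that did not pass. The summed cluster stood at 21347 and 22534 normalized counts in RBC and at 19963 and 19761 in *Mettl3* KO.

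Outside the cluster, Zfp950 on chromosome 19 had 628 and 601 normalized counts in RBC and 1050 and 1006 in *Mettl3* KO, a log2 change of 0.74 ± 0.0651 (SE, adjusted p = 3.12e-08). Zfp964 changed by 0.71 and Zfp974 by 0.67. Zfp937 rose here too, from 111.5 and 104.5 to 160.0 and 183.3, a log2 change of 0.67 ± 0.129. The deepest falls were those of Zfp961, from 1919 and 2068 to 1242 and 1191 (-0.71 ± 0.0537), and of Zfp936, from 2516 and 2621 to 1724 and 1599 (-0.63 ± 0.0471). Zfp932 had 356 and 323 in RBC and 417 and 456 in the knockout, a log2 change of 0.36 ± 0.0886 (edgeR adjusted p = 0.00222), opposite in sign to its change in *Mettl14* KO.

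The knockout comparisons share no library, so their directions can be set side by side. By the adjusted p, 5 members rose in both knockouts (Zfp937, Zfp940, Zfp946, Zfp964 and Zfp974), 10 fell in both and 7 moved in opposite directions. As shares of the 60 tested these are 8.33%, 16.7% and 11.7%, beside 10.1%, 13.3% and 8.62% of all genes. The 10 that fell in both were Zfp936, Zfp961 and Zfp977 together with 7 members of the chromosome 4 cluster. Those moving in opposite directions were Zfp931, Zfp932, Zfp960, Zfp971 and Zfp988, lower in *Mettl14* KO and higher in *Mettl3* KO, and Zfp951 and Zfp958, with the reverse.

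The difference between the knockout changes was tested in the same fit. No member had a *Mettl14* KO change called higher than its *Mettl3* KO change and 6 had it called lower, where 8.07% and 5.9% of all genes did. At an unadjusted p under 0.05 there were 34 members in either direction, and DESeq2 called 0 and 6. The 6 were Zfp971 at -1.38 ± 0.108, Zfp993 at -1.36 ± 0.416, Zfp985 at -1.19 ± 0.0720, Zfp986 at -1.16 ± 0.214, Zfp933 at -1.07 ± 0.152 and Zfp991 at -1.04 ± 0.111 on the log2 scale. All but Zfp971 lie in the chromosome 4 cluster. Zfp993 (adjusted p = 0.0133) did not pass without *Mettl14* KO replicate 2, *Mettl3* KO replicate 2 or RBC replicate 2, where its edgeR adjusted p was 0.0536, 0.0536 and 0.0776. Zfp933 came to -0.91 without RBC replicate 2 and to -0.96 without WT26 replicate 1, and Zfp991 came to -0.96 without *Mettl3* KO replicate 1 and to -0.97 without WT26 replicate 1.

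The control lines themselves differed in these genes. In RBC against WT26 no member was called higher and 4 were called lower, where 4.86% of all genes were called higher and 4.12% lower. DESeq2 gave 0 and 4, and 37 members had an unadjusted p under 0.05. All 4 lie on chromosome 4. Zfp993 had 105 and 126 normalized counts in WT26 and 26.4 and 16.8 in RBC, a log2 change of -2.42 ± 0.268 (SE, adjusted p = 1.18e-06). Zfp986 went from 202 and 179 to 66.7 and 77.9 (-1.39 ± 0.149), Zfp991 from 1024 and 931 to 468 and 443 (-1.10 ± 0.0768) and Zfp992 from 2840 and 2693 to 1308 and 1331 (-1.07 ± 0.0477). By the adjusted p 14 of the 16 cluster members were lower in RBC, where 3272 of all 17021 genes were. The cluster median was -0.46, and the median over the 44 members elsewhere was -0.10.

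Both contrasts against WT26 share the WT26 libraries, so the levels are set side by side without a test. Zfp991 lay between 418 and 468 normalized counts in the 6 libraries of *Mettl14* KO, RBC and *Mettl3* KO, and at 1024 and 931 in WT26. Zfp992 likewise lay between 1184 and 1331 in those 6 libraries. Zfp990, by contrast, was low in *Mettl14* KO alone, at 2960 and 3223, and stood at 5228 and 4855 in WT26, at 4867 and 5264 in RBC and at 5152 and 4992 in its knockout derivative. The knockout, the clone and the parental line cannot be told apart as the source of these levels.

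**Figure D3:**
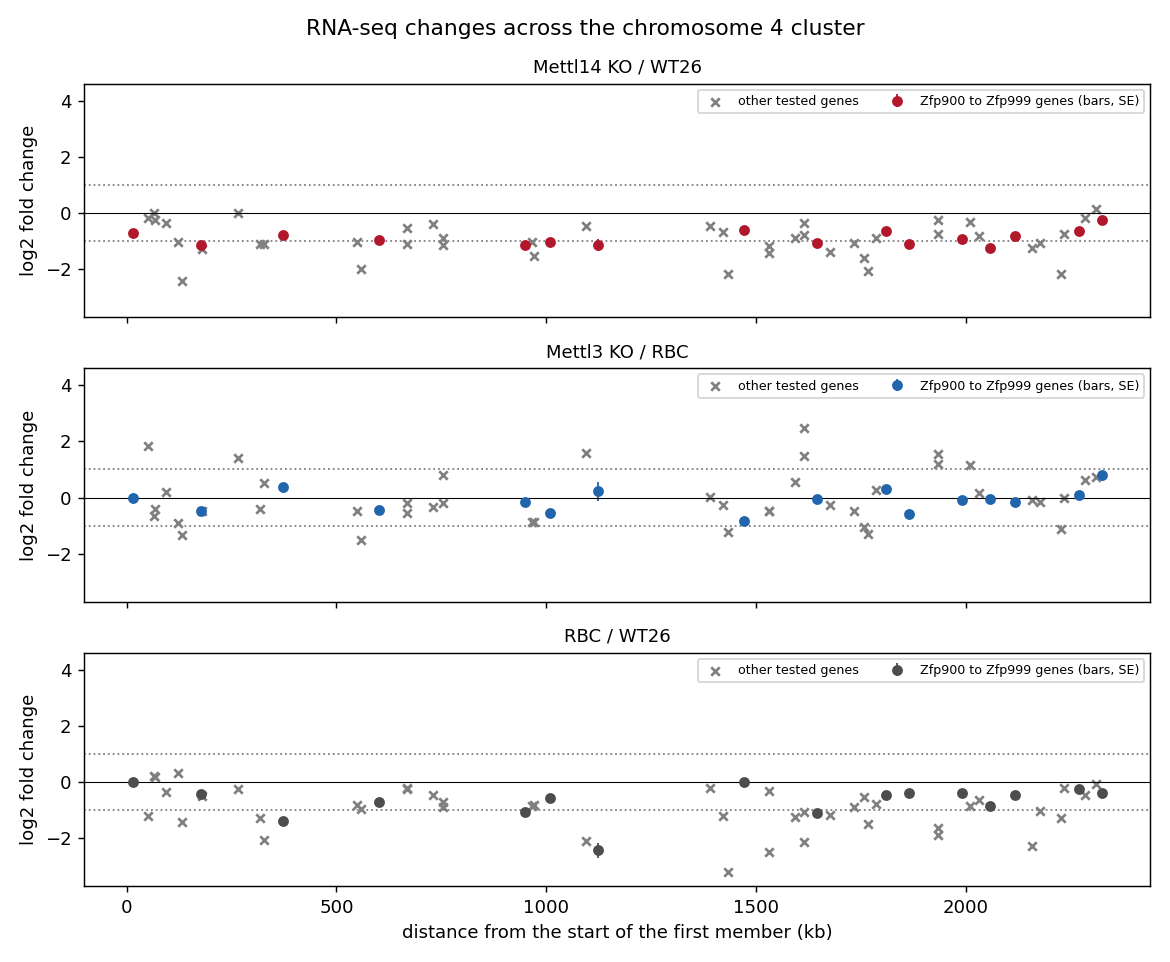
RNA-seq log2 fold change of the 16 members (coloured points, bars give the SE) and of the 43 other tested genes (grey crosses) against distance in kb from the start of the first member of the chromosome 4 cluster, in 3 comparisons. In *Mettl14* KO against WT26 and in RBC against WT26 most genes across the 2338 kb lie under 0, and in *Mettl3* KO against RBC they lie on both sides.

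The MeRIP inputs gave another measurement of the same lines. No member was called by edgeR in either input comparison. For *Mettl14* KO against WT26, 0.124% of all features were called higher and 0.274% lower, and for *Mettl3* KO against RBC 0.181% and 0.57%. At an unadjusted p under 0.05 there were 16 and 3 members, and DESeq2 called 0 in each. The biological coefficient of variation was 0.273 in these libraries and 0.0625 in RNA-seq. The sign matched RNA-seq in 48 of 60 members for *Mettl14* KO and in 50 of 60 for *Mettl3* KO. All 10 members called in RNA-seq for *Mettl14* KO had the same sign in the inputs, as did all 16 chromosome 4 members. Their input groups did not overlap, which also held, in the direction of RNA-seq, for 32 of the 60 members tested in both. For *Mettl3* KO 12 of the 16 chromosome 4 members had the same sign. The input groups did not overlap, in the direction of RNA-seq, in 6 of those 16 and in 32 of the 60. The share of all features without overlap was not counted, so these counts are a description only. Zfp985 had 1822 and 2020 normalized counts in the WT26 inputs and 825 and 981 in the *Mettl14* KO inputs, a log2 change of -1.09 ± 0.337 (edgeR adjusted p = 0.196). Over the 60 members tested in both, Pearson's r between the log2 changes was 0.935 for *Mettl14* KO and 0.822 for *Mettl3* KO, given as a description across genes that share libraries.

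**Figure D4:**
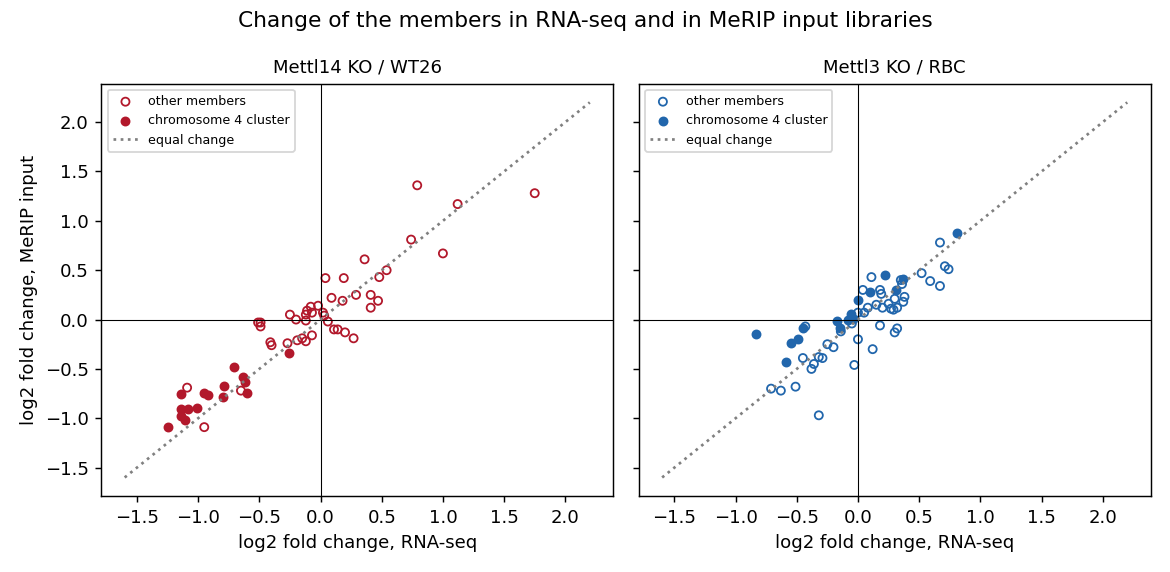
Log2 fold change of each member in RNA-seq (x axis) and in the MeRIP inputs (y axis) for both knockouts, with chromosome 4 members filled and the dotted line marking equal change. All 16 chromosome 4 members lie in the lower left quadrant for *Mettl14* KO.

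IP over input asked which transcripts carried m6A. Values were scaled with size factors over all features, so an enrichment is relative to the typical feature. Of the 62 members tested, 46 were called enriched in WT26 and 46 in RBC, 74.2% each. Over all 22621 features 14.5% and 13.4% were called, and over 14793 protein-coding genes 18.2% and 16.9%. No member was called depleted by edgeR or DESeq2. The median log2 IP over input of the members was 1.36 in WT26 and 1.40 in RBC. Of the other numbered Zfp genes 215 and 214 of 313 were enriched, with medians of 1.44 and 1.46. In both control lines 45 members were called, and over the 62 members Spearman's rho between WT26 and RBC was 0.919.

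Zfp955a on chromosome 17 had the highest ratio. It had 144 and 167 normalized counts in the WT26 inputs and 377 and 1296 in the WT26 IPs, a log2 ratio of 2.43 ± 0.545 (SE, adjusted p = 0.00845). In RBC it had 130 and 152 in the inputs and 438 and 1108 in the IPs, a log2 ratio of 2.45 ± 0.547. All 4 IP values exceeded the 4 inputs, and replicate 2 was the higher IP in each line. Its close copy Zfp955b had ratios of 2.22 and 2.14. Zfp937, 1 of the 5 members that rose in both knockouts, had 65.2 and 36.3 in the WT26 inputs and 128.9 and 419.2 in the IPs, a log2 ratio of 2.39 ± 0.597, and 1.86 in RBC. Zfp958 had 269 and 179 in the inputs and 638 and 1303 in the IPs of WT26, a log2 ratio of 2.11 ± 0.400. Then came Zfp948 and Zfp960 at 2.02, Zfp934 at 2.00, Zfp977 at 1.92 and Zfp936 at 1.89 in WT26.

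In the chromosome 4 cluster 12 of 16 members were called enriched in WT26 and 11 in RBC, with a median of 1.28 in each. Zfp987 and Zfp990 were its highest, at 1.8 and 1.78 in WT26. Zfp981 had 2294 and 2695 normalized counts in the WT26 inputs and 4246 and 8682 in the IPs, a log2 ratio of 1.37 ± 0.317. Zfp932 had 251 and 203 in the inputs and 460 and 746 in the IPs, a log2 ratio of 1.40 ± 0.386. Zfp982 had 724 and 848 in the inputs and 859 and 1231 in the IPs, and its ratio of 0.41 in WT26 and 0.30 in RBC was not called. The lowest ratios were those of Zfp973 (-0.66 in WT26 and -0.82 in RBC), Zfp972 (-0.24 and -0.49), Zfp989 (0.07 and -0.14) and Zfp993 (0.23 and -0.76). Zfp949 at 0.38 and Zfp964 at 0.51 in WT26 were not called either, and in all 14 members were called in no line.

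The call counts rested on single libraries. In WT26 46 enriched members became 14 without input replicate 1, 0 without input replicate 2, 0 without IP replicate 2 and 50 without IP replicate 1. In RBC the same omissions gave 6, 0, 0 and 50. They gave 2, 0, 1 and 41 in the *Mettl14* KO line, where 38 were called with all libraries, and 0, 1, 0 and 6 in the *Mettl3* KO line, where 7 were. The share of all features called fell in the same way, in WT26 to 3.37%, 0.251% and 0.0940%, while the median ratio of the members in WT26 stayed between 0.89 and 1.74. Taken within each pair of input and IP, with a pseudocount of 1, the median ratio of the members in WT26 was 0.85 in replicate 1 and 1.82 in replicate 2, against 0.19 and 0.32 for protein-coding genes. The ratio was above 0 in 60 of 62 members in both WT26 pairs, and in 56 and 58 members in the RBC pairs.

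In the knockouts the ratio stayed above that of the typical gene. In *Mettl14* KO 38 members were called enriched, where 11.9% of all features and 15.5% of protein-coding genes were, with a median of 1.27. In *Mettl3* KO 7 members were called, where 2.54% and 3.15% were, with a median of 0.91. The number in *Mettl3* KO came to 17 by DESeq2, where 4.96% of all features were called, and to 27 when only the *Mettl3* KO input and IP libraries were fitted, where 7.28% were. The 7 were Zfp930, Zfp932, Zfp958, Zfp970, Zfp977, Zfp978 and Zfp990, all of them also called in the other 3 lines. Zfp930 had 204 and 223 normalized counts in the *Mettl3* KO inputs and 555 and 708 in the IPs, a log2 ratio of 1.56 ± 0.230 (edgeR adjusted p = 0.00420), against 1.39 in RBC and 1.18 in WT26. Of the 45 members called in both controls, 24 had a log2 ratio above 1 in *Mettl3* KO. Those 45 were picked for high control ratios, so some would come lower in another line by that choice alone. Other features picked in the same way were not counted.

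**Figure D5:**
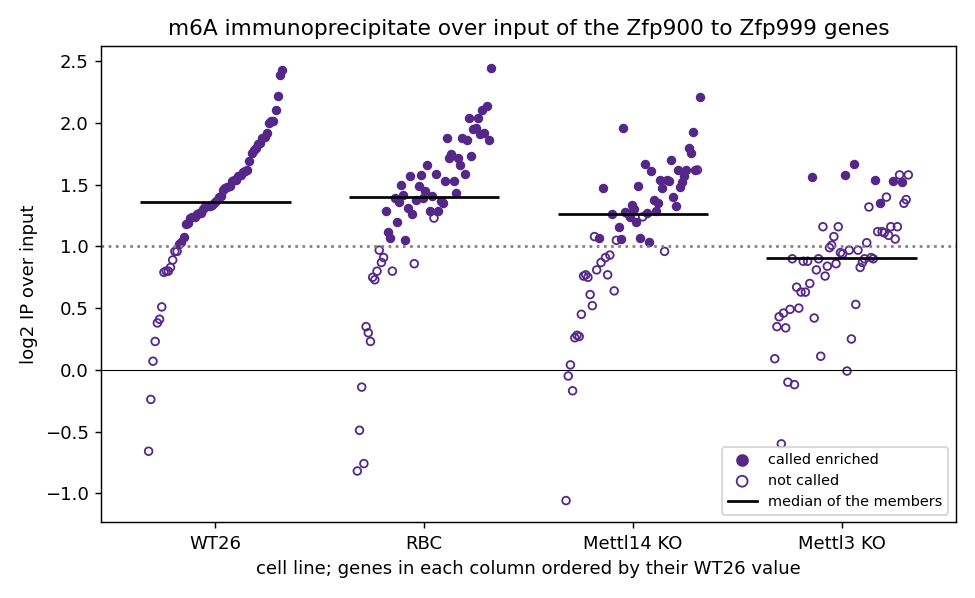
Log2 IP over input of the 62 tested members in each of the 4 lines, ordered within each column by the WT26 value, with filled points called enriched, the black bar at the median and the dotted line at the log2 limit of 1. The medians are 1.36, 1.40, 1.27 and 0.91, and the order of the genes is similar in WT26 and RBC.

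The change in the ratio was tested directly. No member and no other feature (0% of 22621) differed by edgeR's adjusted p in *Mettl14* KO against WT26, and the same held for *Mettl3* KO against RBC (0%). DESeq2 also called 0 members in both. At an unadjusted p under 0.05 there were 0 members for *Mettl14* KO and 3 for *Mettl3* KO, or 4.84% against 3.48% of all features. The median difference was -0.22 and -0.47, and the ratio was lower in the knockout in 53 and 51 of 62 members. For *Mettl14* KO it was also lower in 10785 of 22621 features and in 207 of 313 other numbered Zfp genes. The count for *Mettl3* KO is given without such a share. The sign of the *Mettl14* KO median was set by 1 library, as it came to 0.32 without WT26 IP replicate 2. The size of the *Mettl3* KO median also rested on 1 library, as it came to -0.03 without RBC IP replicate 2. The 3 members were Zfp956 (-1.31 ± 0.582), Zfp952 (-1.30 ± 0.535) and Zfp938 (-0.92 ± 0.356), named after their values were seen. Zfp952 had 108 and 105 normalized counts in the RBC inputs and 183 and 341 in the IPs, but 73.6 and 89.9 in the *Mettl3* KO inputs and 73.5 and 88.5 in the IPs. Zfp938 had 114 and 143 in the RBC inputs and 204 and 241 in the IPs, and 122 and 122 in the inputs and 113 and 111 in the IPs of *Mettl3* KO. With 2 pairs a line none of these differences passed the adjusted p.

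The m6A machinery prefers a 5-base consensus, counted here as a purine, another purine, AC and any base but G, with GGACU being the commonest form. The word GGACT was absent from the transcripts of 28 of the 66 members (42.4%) and from 12.4% of protein-coding genes, whereas the looser consensus occurred at a median of 18.4 per kb in members and 14.7 in protein-coding genes. The conserved linker between fingers holds such a copy. The commonest 18-base run in the coding sequences of the members, shown because its capitals mark a copy of the consensus, stood 145 times in 31 of 65 members and up to 12 times in Zfp987, and was found in 65 of 21947 coding genes (0.296%).
Linker run: ggagagAAACCttacaaa

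In WT26 18 of 25 tested members without GGACT were enriched and 28 of 37 with it, with medians of 1.37 and 1.35, and in RBC the numbers enriched were the same. With the linker run 24 of 31 were enriched in WT26 and without it 22 of 31, and in RBC 23 of 31 were in each case. The order was the other way without Mettl14, at 18 of 31 with the run and 20 of 31 lacking it. Without Mettl3 it was again as in WT26, at 5 of 31 with the run and 2 of 31 lacking it. Across the 62 members Spearman's rho between the ratio in WT26 and the consensus per kb was 0.16, with GGACT per kb -0.0137, with transcript length 0.111 and with RNA level per kb 0.112. For the number of fingers, counted in the longest coding transcript alone, it was 0.325 over the 61 members with a coding sequence. These correlations are descriptions across genes that share libraries and, in part, sequence.

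The partners of these proteins were taken from a list of 22 corepressor and heterochromatin genes, 21 of them found and tested. By edgeR and by DESeq2 0 were called in RNA-seq in either knockout, and 17 and 15 had an unadjusted p under 0.05. By the adjusted p 2 rose and 15 fell in *Mettl14* KO and 4 rose and 11 fell in *Mettl3* KO, with medians of -0.36 and -0.13. The corepressor Trim28 had 11492 and 12155 normalized counts in WT26 and 8287 and 7952 in *Mettl14* KO, a log2 change of -0.54, and changed by -0.74 in *Mettl3* KO. Setdb1 had 3531 and 3299 in WT26 and 1976 and 2115 in *Mettl14* KO, a log2 change of -0.74, and changed by 0.16 in *Mettl3* KO. Only 2 of the 21, Chaf1a and Resf1, were enriched in the IP of WT26, and Trim28 was lower in IP than in input (-1.34).

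Of 15 other zinc finger genes known to bind repeats or imprinted loci, 14 were found and 13 tested in RNA-seq. In *Mettl14* KO Zfp600 was called lower. In *Mettl3* KO Zfp57, which protects imprints, was called lower, from 10047 and 10160 normalized counts in RBC to 3280 and 3384 (-1.6 ± 0.0542, adjusted p = 1.59e-13), as was Zfp429 at -1.51. Zfp429 had low values, 12.6 and 11.8 for the RBC libraries against 4.3 and 4 without Mettl3, and was not called by DESeq2 (adjusted p = 0.0538). Of 14 tested in MeRIP, 10 were enriched in WT26 and 8 in RBC. Of 10 retrotransposon subfamilies listed, 7 were tested in the inputs, all of them endogenous retroviruses. The listed LINE subfamilies L1MdA_I, L1MdT_I and L1MdGf_I were not found under those names, so LINE elements were not examined. None of the 7 was called by edgeR or passed the adjusted p of DESeq2 in either knockout, and 0 and 1 of them had an unadjusted p under 0.05. Their log2 changes ran from -0.39 up to 0.54 without Mettl14 and from -0.72 up to 0.02 without Mettl3. The internal part of the IAPEz elements, for example, had 24722 and 27561 normalized counts in the WT26 inputs and 24985 and 27318 in the *Mettl14* KO inputs.

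Cell type markers moved with the lines as well. All 10 ES cell markers were detected, and their sum went from 32831 and 33201 normalized counts in WT26 to 22935 and 23488 in *Mettl14* KO. In RBC it was 29377 and 29609, and in the *Mettl3* KO line 19624 and 20370. By the call rule 1 of the 10 was lower without Mettl14 and 2 without Mettl3. Of 6 primitive endoderm markers 4 were tested and all 4 called higher in *Mettl14* KO, their sum going from 56.1 and 55.8 to 173.3 and 166.6, with Sox17 and Foxa2 near 0. The control line RBC also stood above WT26, with sums of 126.5 and 133.1 and 2 of the 4 markers called higher. The sums in *Mettl3* KO were 101.7 and 124.9. Sox7 alone of these was called lower in *Mettl3* KO by edgeR, and was not called by DESeq2 (adjusted p = 0.0797). Of 5 markers of cells like the 2-cell embryo, 2 were tested and called lower in each knockout, with sums of 102.2 and 70.9 in WT26 and 24.0 and 22.4 in *Mettl14* KO. In RBC they summed to 86.2 and 58.2, against 26.1 and 26.2 in *Mettl3* KO, where DESeq2 called 1 of the 2. Mesoderm markers summed to at most 57.5 and fibroblast markers, Dcn being at 0 throughout, to at most 116.3 in any library. Of the 2 mesoderm markers tested 0 were called by edgeR or DESeq2, with 0 at an unadjusted p under 0.05, and of 3 fibroblast markers 1 was called lower without Mettl14 and 1 each way without Mettl3. Of 5 neural markers 1 was called higher and 2 lower in *Mettl14* KO and 1 each way in *Mettl3* KO. Their part in the changes of the members was not tested.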

How the data were processed

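RNA-seq and MeRIP-seq were measured in 4 lines with 2 replicates per group. The authors deposited raw counts, per gene for RNA-seq and per gene and repeat subfamily (49090 features) for MeRIP-seq, with no normalization. Per the labels, reads were trimmed with cutadapt 1.8.1, aligned to GRCm38 with STAR 2.6.0c and, for RNA-seq, analysed with DESeq2 1.26.0. The study counted MeRIP reads with TEtranscripts, which shares reads among their mapping positions. The tool and strand setting that counted RNA-seq reads are not given in the sources used here. Every column was assigned to a sample (0 left over).

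Symbols came from GENCODE M21 by gene ID without version, matching 47224 of 47937 IDs; 17 members matched only in this way. The members follow from a rule on the symbol, but that symbol range, like the lists, was chosen with earlier results of these data known. Counts were scaled with DESeq2 size factors, filtered with filterByExpr and fitted with edgeR 4.0.16 (quasi-likelihood F test, all libraries of a table in a fit, R 4.3.3). Benjamini-Hochberg adjustment ran over 17021 genes or 22621 features, and a feature was called when its adjusted p did not exceed 0.05 and its log2 change exceeded 1 in size (adjusted p alone for a change in IP over input). SE is the log2 change divided by the root of F. Members called in an RNA-seq knockout comparison or enriched in WT26 or RBC were named, the largest in full, with Zfp932, Zfp981 and Zfp982 always included. Transcript features used the longest protein-coding GENCODE M21 transcript of each gene, or the longest transcript where none was coding.

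Inputs and IPs of the same number come from the same biological replicate, and their deviations correlated at 0.195 to 0.280 in the 4 lines, so the pair was fitted as a block as an alternative. On simulated RNA-seq counts (16491 genes, 200 changed 4-fold in *Mettl14* KO) 100% were recovered, and on simulated MeRIP counts (21736 features, WT26 IP) 92.5%. The changed genes had a mean normalized count of at least 50. Recovery of weaker genes, of changes near 2-fold and of changes in IP over input between lines was not simulated. Other alternatives were TMM factors, DESeq2 1.42.0, other count filters, only the libraries compared and omission of each replicate.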

Additional observations from a re-analysis of the deposited data

Results flagged for a closer look

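The *Mettl14* KO change and the *Mettl3* KO change differed from each other, by the test of the difference in edgeR, for 6 members. On the log2 scale the difference was -1.38 for Zfp971 (adjusted p = 2.06e-08), where *Mettl14* KO was -1.09 and *Mettl3* KO 0.29. It was -1.36 for Zfp993 (adjusted p = 0.0133), -1.19 for Zfp985 (adjusted p = 7.81e-10), -1.16 for Zfp986 (adjusted p = 0.000283), -1.07 for Zfp933 (adjusted p = 1.98e-05) and -1.04 for Zfp991 (adjusted p = 8.18e-07). Groups of 2 libraries were too small for a search for single libraries far from the rest.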

How the results depend on the processing

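No value of a member that passed its test changed direction under the alternatives run, while the median change in IP over input of *Mettl14* KO turned from -0.22 to 0.32 without WT26 IP replicate 2. That of *Mettl3* KO went from -0.47 to -0.03 without RBC IP replicate 2. The number enriched in the IP of *Mettl3* KO was 7, and it came to 17 by DESeq2, 22 with no filter on low counts and 27 with only the libraries compared. The share of all features called rose as well, from 2.54% to 4.96%, 4.13% and 7.28%. In the inputs of *Mettl14* KO, where 0 were called, no filter and only the libraries compared gave 1 and 1 higher and 2 and 3 lower. With at least 10 counts in every library, 1 member rather than 2 was called higher in *Mettl14* KO RNA-seq. Zfp973, with 5 raw counts in WT26 replicate 2 and 8 in RBC replicate 1, was then not tested. Leaving out a library gave 0 to 50 enriched members in WT26 and in RBC, 0 to 41 in *Mettl14* KO and 0 to 6 in *Mettl3* KO. In RNA-seq it gave 2 to 3 members higher and 7 to 9 lower in *Mettl14* KO, 4 lower in RBC against WT26, 0 either way in *Mettl3* KO, and 0 to 1 higher and 4 to 8 lower for the difference between knockouts. An arm left with 1 library was assumed to vary like the others. With the pair of input and IP as a replicate block, 46, 45, 39 and 9 members were enriched in WT26, RBC, *Mettl14* KO and *Mettl3* KO. With the replicate number as a block in RNA-seq the calls in *Mettl14* KO were 2 and 8, and no other count moved by over 1.5 times. The labels tie same-numbered RNA-seq libraries by the number only. Their deviations correlated at -0.0713 for WT26 with *Mettl14* KO and at 0.453 for RBC with *Mettl3* KO. The latter is above the 0.195 to 0.280 of the input and IP pairs, and what those libraries shared was not tested. With the replicate number as a block, 0 members were called either way in *Mettl3* KO. With 2 pairs per line the spread between replicates limits every change in IP over input.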
